A study of Mus musculus with 6 samples.

Results

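Clathrin-mediated endocytosis retrieves vesicle membrane after neurotransmitter release. Adaptors recruit clathrin to the plasma membrane, BAR domain proteins bend the membrane and shape the neck of the bud, dynamin cuts the neck, and a lipid phosphatase helps to strip the coat so that the vesicle can be refilled. Much of this machinery is concentrated in presynaptic terminals, and several of its components have a neuron-enriched isoform next to a more widely expressed paralogue.

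Here, 10 genes of this machinery were followed in the cortex of young and aged mice. They were listed by name: *Cltc*, *Clta* and *Cltb* for the clathrin coat, *Ap2m1* and *Snap91* for the adaptors, *Amph* and *Sh3gl2* for the BAR domain proteins, *Dnm1* and *Dnm3* for the dynamins, and *Synj1* for the phosphatase. They are 10 of the 38355 genes listed in each count file, and all 10 were among the 17120 genes that passed edgeR's filter on low counts. The samples were whole, dissected cortical hemispheres of C57BL/6 mice, an inbred wild-type strain, with 3 samples from animals aged 6 months and 3 samples from animals aged 16 months. No sample carried a transgene or a deletion, and the study gives each sample as a separate brain. The growth protocol among the labels gives the young age as 3 months, whereas the titles, the age labels and the study's methods give 6 months, which was used. The study links DNMT1, the maintenance DNA methyltransferase, to endocytosis in cortical interneurons, and the age comparison asks whether these transcripts differ in whole cortex. Interneurons were not sorted for these libraries, so a level is that of all cells of the tissue, and fewer cells of a type cannot be told apart from less RNA per cell.

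Polyadenylated RNA was sequenced, and total counts on genes lay between 29797253 and 46519280 per sample. All levels are counts per 1000000 counts of the sample after TMM scaling (CPM), and all fold changes are 16 over 6 months on the log2 scale. Replicates 1 and 2 of 16 months stood apart from the other libraries over the 16904 tested genes with a known GC content. The departures of their log2 CPM from the average of the age followed GC content with r = 0.599 and −0.591. In the other 4 samples r was −0.129 to 0.161. Departures within an age sum to 0 for each gene, so these values are not independent of each other. In the marker lists, 0 of 8 genes of cortical excitatory neurons were called, whereas 5 of 8 thalamic, 3 of 5 dentate gyrus, 1 of 7 striatal and 1 of 5 tested choroid plexus markers were called higher at 16 months. Their summed levels were 102 to 106 CPM at 6 months and 132 to 143 CPM at 16 months for the thalamus. For the dentate gyrus they were 49.7 to 52.5 and 70.4 to 74.6 CPM. For the striatum they were 677 to 688 and 759 to 770.0 CPM, and for the choroid plexus 16.5 to 18.0 and 24.98 to 27.9 CPM. The called striatal gene was *Pde10a* (means of 226.5 and 281.3 CPM) and the called choroid plexus gene *Ttr* (8.95 and 17.8 CPM). In these lists 6 of 7 and 3 of 5 log2 fold changes were above 0, with *Rgs9* at −0.015, *Kcnj13* at −0.032 and *Kl* at −0.021. Of 6 astrocyte markers only *Gfap* was called, with a log2 fold change of −0.47, while *Gja1* (0.22), *Slc1a3* (0.20), *Aldh1l1* (0.25) and *Slc1a2* (0.15) had every aged sample above every young one without being called. The astrocyte list had a median of 0.18 and summed to 5435 to 5777 CPM at 6 months and 5818 to 6564 CPM at 16 months. Of 6 microglial markers only *Aif1* was called (−0.43), *Csf1r* lay apart the other way (0.25, not called), and the list summed to 346 to 357 CPM and 357 to 366 CPM. Of the oligodendrocyte and endothelial markers 0 of 6 and 0 of 5 were called. The dissected tissue thus differed between ages in regional markers, and the part of this in the values below was not tested.

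None of the 10 genes was called between the ages, at a Benjamini-Hochberg adjusted *P* under 0.05 in edgeR's quasi-likelihood test. The count was 0 of 10, where 1.67% of all tested genes were called (286 of 17120). DESeq2's Wald test also called 0 of 10, where it called 3.03% of its genes. Leaving out replicate 1, 2 or 3 of 6 months (0.318%, 0.328% and 0.277% of all genes called) or of 16 months (5.73%, 12.7% and 0.335% called) left the count at 0 of 10 in each edgeR fit. At an unadjusted *P* under 0.05 each tool gave 1 gene, *Amph*, where 17.4% of all tested genes passed that threshold in edgeR. The log2 fold changes of the 10 genes ran from 0.021 to 0.12 with a median of 0.046, so that all 10 values were above 0, as were 50.3% of all tested genes, whose median was 0.0014. Abundant genes as a class had more positive values: among the 3456 tested genes at or above the mean level of *Ap2m1*, the least abundant of the 10, 62.8% were above 0 and the median was 0.033. In 3 of the 10 genes (*Cltc*, *Amph* and *Sh3gl2*) every sample of 16 months lay above every sample of 6 months, which held for 12.2% of all tested genes.

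**Figure D1:**
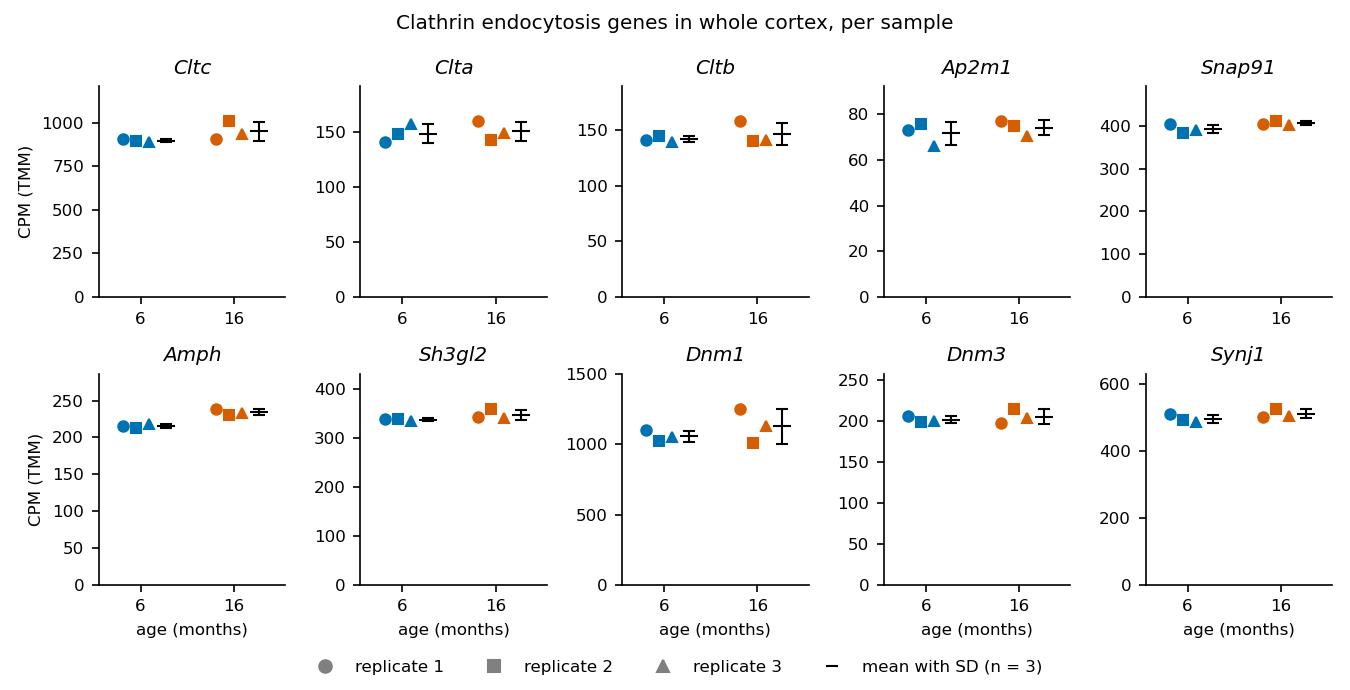
Level of each of the 10 endocytosis genes (vertical axis, CPM after TMM scaling, from 0) in the 3 samples of 6 months (blue) and the 3 samples of 16 months (orange), with marker shapes for the replicates and black bars for mean and SD (n = 3). The ages lie apart for *Cltc*, *Amph* and *Sh3gl2* and overlap for the other 7 genes, and *Dnm1* shows the widest spread at 16 months, from 1007 to 1255 CPM.

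The coat was represented by its heavy chain and both light chains. *Cltc* encodes the clathrin heavy chain, which forms the legs of the triskelion, and is annotated on chromosome 11 (GRCm38, 86694351 to 86757565, minus strand). Its level was 904, 893 and 890 CPM in replicates 1, 2 and 3 at 6 months and 905, 1008 and 934 CPM at 16 months. The lowest aged sample was thus only marginally above the highest young one. The means were 896 ± 7.59 and 949 ± 53.4 CPM (SD, n = 3 each), which gave a log2 fold change of 0.083 ± 0.054 (standard error; adjusted *P* = 0.469, edgeR). The 95% interval of this difference ran from −2.50% to 15.1%, and without replicate 2 of 16 months the log2 fold change of *Cltc* was 0.038.

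*Clta* (chromosome 4, 44004452 to 44032846, plus strand) and *Cltb* (chromosome 13, 54592401 to 54611344, minus strand) encode the light chains, which bind the heavy chain and regulate assembly of the lattice. *Clta* was at 140.1, 148 and 157 CPM at 6 months and at 159, 143 and 149 CPM at 16 months. *Cltb* was at 141, 145 and 139.9 CPM at 6 months and at 158, 141 and 142 CPM at 16 months. For both light chains the ages overlapped and replicate 1 held the highest value at 16 months. Their log2 fold changes were 0.021 ± 0.063 and 0.049 ± 0.059 (standard error; adjusted *P* = 0.896 and 0.719, edgeR). Leaving out replicate 1 turned the value of *Clta* to −0.018 (that of 6 months left out) or −0.023 (that of 16 months), and in the latter fit *Cltb* stood at −0.0080.

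Relative to exon length, *Clta* contributed 73.8% ± 1.24 of light chain transcripts at 6 months and 73.5% ± 0.444 at 16 months (SD, n = 3 each). This share depends on the length used. The exons of *Cltb* span 4868 bases in all and its longest coding transcript 2186. By the longest coding transcript *Clta* took 57.1% and 56.7%. The ratio of both light chains to the heavy chain was taken per exon length only, so its size has the same limit. It was 1.00, 1.06 and 1.11 in the young samples and 1.14, 0.912 and 1.02 in the aged ones. Both extremes of this ratio therefore came from aged samples, replicates 1 and 2, and the age groups overlapped.

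The promoters of the coat and BAR domain genes illustrate the CpG dinucleotides that DNMT1 can methylate. RefSeq windows of 300 bases around transcript starts (250 before and 50 after, GRCm38.p6) were found for all 10 genes, 12 windows in all. They held between 3 CpG (1 of 2 windows of *Clta*) and 36 CpG (1 of 2 windows of *Synj1*), with 12 in *Dnm3*, 19 in *Amph*, 27 in *Cltc*, 28 in *Dnm1* and 34 in *Sh3gl2*. For the windows of *Snap91* and *Cltb*, the bases after the start were not found in a GENCODE transcript of the gene. The median over 32851 windows was 7, and 15.5% of windows held at least as many CpG as that of *Cltc* and 28.1% as many as that of *Amph*. The bases before the first annotated base of *Cltc* and of *Amph* are shown 5′ to 3′. These are chr11:86757568-86757817 (minus strand, 22 CpG in 250 bases) and chr13:18948101-18948204 (plus strand, 2 CpG in 104 bases). In both genes every aged sample lay above every young one. The window of *Sh3gl2*, the other such gene, starts within the annotated gene and leaves no bases to show. The *Amph* stretch is cut where the annotated gene begins, ahead of the RefSeq start. Its CpG count is therefore not comparable with that of *Cltc*. Capitals mark CpG, counted on the strand of the gene.
Cltc: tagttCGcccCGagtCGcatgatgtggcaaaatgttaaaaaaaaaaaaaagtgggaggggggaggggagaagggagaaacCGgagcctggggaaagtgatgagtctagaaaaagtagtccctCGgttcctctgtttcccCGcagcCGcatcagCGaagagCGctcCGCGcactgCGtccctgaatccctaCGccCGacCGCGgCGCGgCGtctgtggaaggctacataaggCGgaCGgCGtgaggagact
Amph: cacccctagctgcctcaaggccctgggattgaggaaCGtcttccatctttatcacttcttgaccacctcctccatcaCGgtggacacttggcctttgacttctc
Most CpG of *Cltc* lie in the part nearest to the start. Methylation of these bases was not measured in the 6 samples.

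Among the adaptors, *Ap2m1* (chromosome 16, 20535478 to 20544909, plus strand) encodes the medium subunit of AP2, the complex that links cargo and membrane lipids to clathrin. Its level was 73.4, 75.9 and 66.2 CPM at 6 months and 77.0, 75.0 and 70.5 CPM at 16 months. In both ages replicate 3 was the lowest, and the groups overlapped (log2 fold change 0.047, standard error 0.065, adjusted *P* = 0.755, edgeR). Without replicate 3 of 6 months the log2 fold change was −0.0087. These values are uncertain as a level, since 44.5% of the *Ap2m1* transcript is nearly identical (97% over at least 100 bases) to the pseudogene *Gm13509* and 23.1% to AC111023.1. *Gm13509* held 368 to 638 counts per sample, against 2278 to 3440 counts of *Ap2m1*.

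*Snap91* (chromosome 9, 86765923 to 86880654, minus strand) encodes AP180, the neuronal assembly protein that helps to set the size of clathrin-coated vesicles. It was at 403, 384 and 391 CPM at 6 months and at 404, 411 and 401 CPM at 16 months. Only replicate 1 of 6 months, the highest young sample, lay within the aged range. The means of 393 ± 9.73 and 405 ± 4.81 CPM (SD, n = 3 each) gave a log2 fold change of 0.046 ± 0.048 (standard error; adjusted *P* = 0.671, edgeR). Its paralogue *Picalm*, which encodes the widely expressed CALM, took the rest of the family: *Snap91* made up 76.6% ± 0.610 per length at 6 months and 76.8% ± 1.69 at 16 months.

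The BAR domain gene *Amph* held the largest difference of the 10 genes in the fit with all samples and no offsets. With GC and length offsets *Cltc* and *Sh3gl2* had larger values. Dropping the aged replicate 2 put *Dnm1* ahead (log2 fold change 0.171, against 0.132 for *Amph*). Dropping the young replicate 1 did so too (0.124 against 0.119). *Cltc* came first once the aged replicate 1 was dropped (0.117 against 0.106). The remaining fits that dropped 1 sample kept *Amph* first. *Amph* (chromosome 13, 18948205 to 19150921, plus strand) encodes amphiphysin, which binds clathrin, AP2 and dynamin and brings dynamin to the neck of the bud. It was at 215, 213 and 218 CPM at 6 months and at 239, 231 and 233 CPM at 16 months. The ages did not overlap, and the gap between the highest young and the lowest aged sample was larger than the range of either age. Means were 215 ± 2.77 and 234 ± 4.26 CPM (SD, n = 3 each), and the log2 fold change was 0.12 ± 0.047 (standard error). The aged level was 8.76% above the young one, with a 95% interval from 1.06% to 17.0%. This difference failed the adjustment over all genes in edgeR (adjusted *P* = 0.227). The adjusted *P* was 0.191 without replicate 1 and 0.0723 without replicate 2 of 16 months.

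*Amph* was also the one gene whose share within its family did not overlap between ages. Its share per length of the amphiphysin pair, with *Bin1* as the paralogue that is widely expressed and also made by oligodendrocytes, was 44.0%, 43.7% and 44.4% at 6 months and 45.4%, 47.0% and 45.9% at 16 months. The difference of 2.09 percentage points had *p* = 0.1 in an exact two-sided permutation test, the smallest that 3 against 3 samples allow, and an adjusted value of 0.889 over the 10 distinct shares tested. *Bin1* itself had a log2 fold change of 0.00043 (adjusted *P* = 0.998, edgeR). The ages thus lay apart in 1 of 10 shares, and in 5 of 10 once replicate 2 of 16 months was left out. Under random age labels a share lies apart with this probability of 0.1, and more often when a sample is left out.

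*Sh3gl2* (chromosome 4, 85205126 to 85639195, plus strand) encodes endophilin A1, which bends membrane and recruits synaptojanin. Its level was 339, 338 and 334 CPM at 6 months and 342, 359 and 339 CPM at 16 months. The aged samples lay above the young ones by a margin smaller than 1% of the level, and only replicate 2 stood clear of them. Its log2 fold change was 0.042 ± 0.048 (standard error; adjusted *P* = 0.704, edgeR), and 0.016 without replicate 2 of 16 months. Endophilin A1 took 78.0% ± 0.312 of the endophilin A transcripts per length at 6 months and 77.7% ± 0.767 at 16 months, next to *Sh3gl1* and *Sh3gl3*.

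The dynamins are the large GTPases that cut the vesicle neck. *Dnm1* (chromosome 2, 32308471 to 32353338, minus strand), the main neuronal isoform, was at 1102, 1024 and 1050 CPM at 6 months and at 1255, 1007 and 1129 CPM at 16 months. The aged samples spread over the young ones on both sides, with replicate 1 the highest and replicate 2 the lowest of all 6. The log2 fold change of 0.094 had a standard error of 0.076, the largest of the 10 genes (adjusted *P* = 0.569, edgeR), and it was 0.012 without replicate 1 and 0.17 without replicate 2 of 16 months.

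*Dnm3* (chromosome 1, 161982453 to 162478034, minus strand), a dynamin enriched in brain and testis, was at 206, 198 and 201 CPM at 6 months and at 198, 215 and 203 CPM at 16 months. Here replicate 2 was the highest and replicate 1 the lowest aged sample, the reverse of *Dnm1*. Its log2 fold change was 0.026 ± 0.052 (standard error; adjusted *P* = 0.839, edgeR), and −0.0088 without replicate 2 of 16 months. Per length of exon, *Dnm1* took 90.8% ± 0.0256 of dynamin transcripts at 6 months and 91.0% ± 0.556 at 16 months, *Dnm2*, the ubiquitous isoform, 5.44% ± 0.0701 and 5.42% ± 0.106, and *Dnm3* 3.72% ± 0.0670 and 3.59% ± 0.530 (SD, n = 3 each). The share of *Dnm3* depends on the length used, since its exons span 24452 bases in all and its longest coding transcript 7523. By the latter length *Dnm3* took 9.75% and 9.43%.

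**Figure D2:**
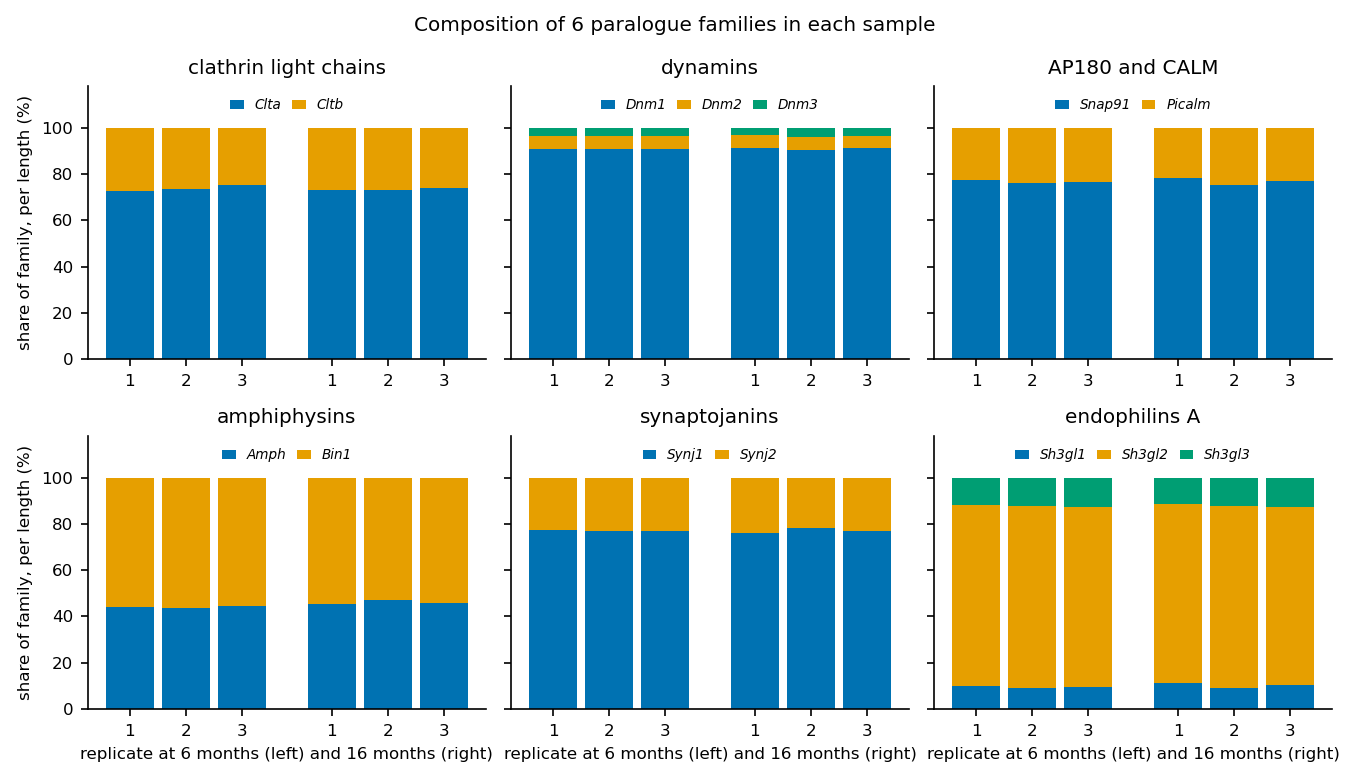
Share of each paralogue in its family (vertical axis, % of CPM per exon length) in each sample, for 6 families, with the 3 samples of 6 months on the left and the 3 of 16 months on the right of each panel. *Dnm1* takes about 91% of dynamin transcripts in all 6 samples, and the *Amph* share of 43.7% to 44.4% at 6 months lies under the 45.4% to 47.0% at 16 months.

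All 3 dynamin genes carry miRNA genes of the miR-199 and miR-214 group in the opposite orientation. RefSeq places *Mir199a-2* and *Mir214* within *Dnm3*, *Mir199b* within *Dnm1* and *Mir199a-1* within *Dnm2*. Their mature sequences are shown 5′ to 3′ with the seed (bases 2 to 8) in capitals, to identify these opposite-strand genes. None of them shares exonic bases with a dynamin gene in the annotation, so their reads are counted apart. The 3p arms of miR-199a and miR-199b have the same sequence.
mmu-miR-199a-5p: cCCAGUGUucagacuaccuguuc
mmu-miR-199a-3p and mmu-miR-199b-3p: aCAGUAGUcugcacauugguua
mmu-miR-214-5p: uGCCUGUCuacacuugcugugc
mmu-miR-214-3p: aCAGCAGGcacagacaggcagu
Libraries of polyadenylated RNA do not measure mature miRNAs. The miRNA genes held at most 8 counts in a sample, and *Mir199a-2* and *Mir214* were at 0 in all 6. *Dnm3os*, the host transcript of the pair within *Dnm3*, held 21, 23 and 25 counts at 6 months and 13, 21 and 28 counts at 16 months, against 5950 to 9658 counts of *Dnm3*. Exonic overlap on the opposite strand covered 0.172% (2810442N19Rik) and 1.45% (*Gm10176*) of the exonic bases of *Dnm3* and 0.742% (4930404I05Rik) of those of *Synj1*.

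*Synj1* (chromosome 16, 90936092 to 91011308, minus strand) encodes synaptojanin 1, the phosphoinositide phosphatase that promotes uncoating. It was at 509.5, 492 and 487 CPM at 6 months and at 503, 526 and 504 CPM at 16 months. Replicate 1 of 6 months lay within the aged range, so the ages overlapped. Its log2 fold change was 0.042 ± 0.049 (standard error; adjusted *P* = 0.708, edgeR), and 0.020 without replicate 2 of 16 months. *Synj1* took 77.1% ± 0.309 and 77.2% ± 1.12 of synaptojanin transcripts per length, with *Synj2* as the other.

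Taking all 10 genes as one sum, they held 0.406%, 0.394% and 0.397% of the counts on genes at 6 months and 0.421%, 0.406% and 0.408% at 16 months. The ages overlapped in these unscaled shares, since replicate 1 of 6 months reached the value of replicate 2 of 16 months. After TMM scaling the sum was 3910 to 4033 CPM at 6 months and 4105 to 4239 CPM at 16 months, without overlap. This difference of the sum was not tested. The 95% intervals of the age difference reached no lower than −7.90% (*Clta*) and no higher than 20.1% (*Dnm1*) in any of the 10 genes, so differences of a few percent were not detectable in the fit without GC and length offsets.

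Levels per kilobase of exon ordered the 10 genes over a wide range. *Dnm1* led with 202 ± 7.61 CPM per kilobase at 6 months and 215 ± 23.6 at 16 months (SD, n = 3 each), ahead of *Cltc* with 105 ± 0.893 and 112 ± 6.28 and *Clta* with 82.3 ± 4.62 and 83.5 ± 4.69. *Synj1*, *Sh3gl2*, *Amph* and *Snap91* followed, between 61.4 and 43.0 at 6 months. *Cltb* at 29.2, *Ap2m1* at 17.4 and *Dnm3* at 8.25 CPM per kilobase were the lowest. Neighbours in this order did not overlap over the 6 samples, other than *Sh3gl2* and *Amph*. With the length of the longest coding transcript in place of all exons, 7 of the 10 genes took another rank, and *Sh3gl2* and *Snap91* moved to ranks 3 and 4.

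The spread of the 10 genes between aged samples followed their GC content. Across the 10 genes, whose transcripts ranged from 42.9% GC (*Sh3gl2*) to 57.4% (*Dnm1*), the deviation from the mean of the age had r = 0.930 with GC content in replicate 1 of 16 months and r = −0.944 in replicate 2. In replicate 3 it was 0.156, and in replicates 1, 2 and 3 of 6 months −0.178, −0.0691 and 0.194. These are descriptions across genes of one library, which share that library's base composition. Deviations within an age sum to 0 for each gene, so the values of replicates 1 and 2 are not independent of each other. *Dnm1* deviated by 0.16 (log2) in replicate 1 and −0.16 in replicate 2, and *Cltc*, with 43.6% GC, by −0.068 and 0.089. Genes high in GC (*Dnm1*, *Clta*, *Cltb*) and genes low in GC (*Cltc*, *Dnm3*, *Sh3gl2*, *Synj1*) thus moved to opposite sides in these libraries, and the cause was not tested. Of the remaining genes, *Amph* deviated by 0.029 and −0.023 and *Snap91* by −0.0047 and 0.019. *Ap2m1* lay on the same side in both libraries (0.056 and 0.017).

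**Figure D3:**
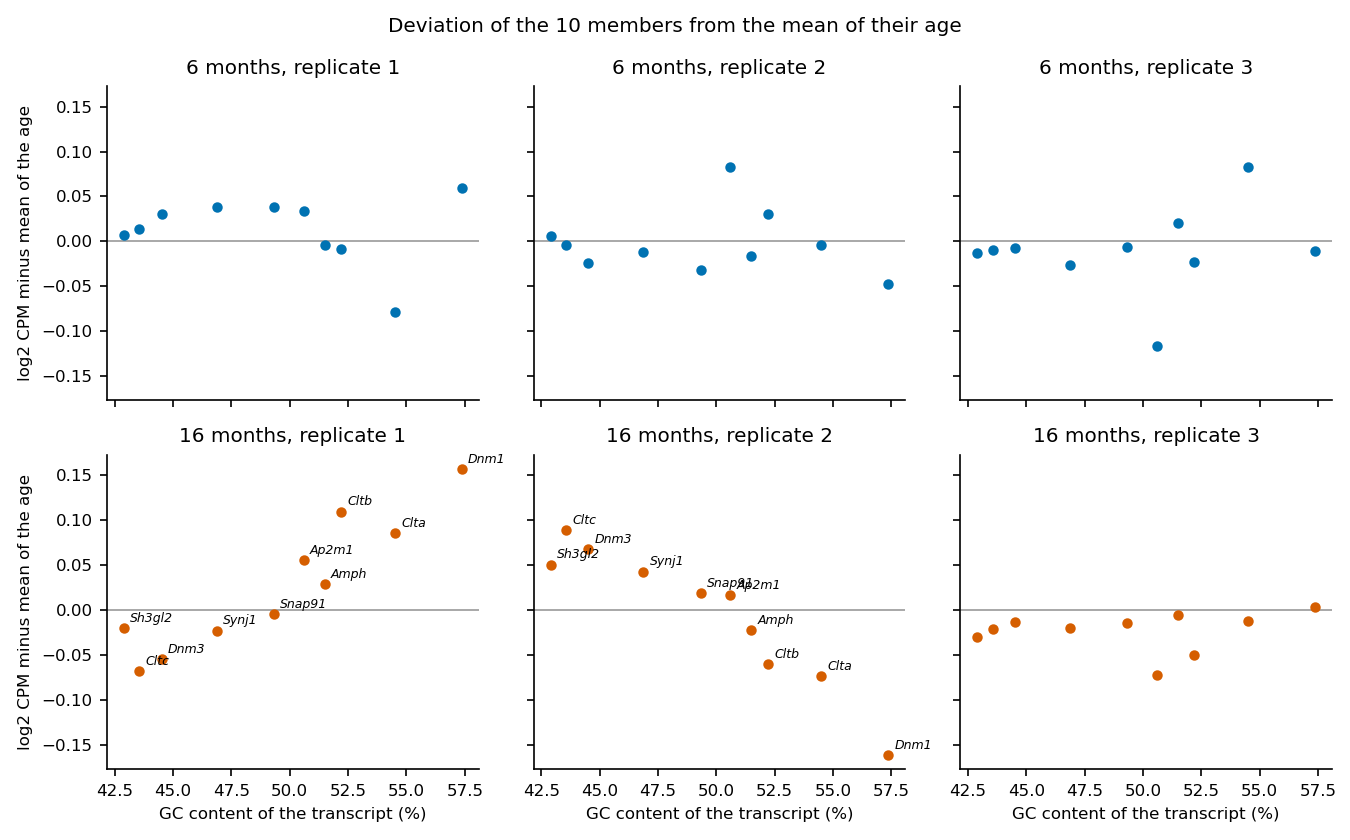
Deviation of each of the 10 genes from the mean of its age (vertical axis, log2 CPM) against the GC content of its transcript (horizontal axis, %), with 1 panel for each sample (blue, 6 months; orange, 16 months). The points follow an upward line in replicate 1 (r = 0.930) and a downward line in replicate 2 (r = −0.944) of 16 months and no such line in the other 4 samples.

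The same split, drawn from the same values, appeared among pairs of genes. Over the 6 samples, the log2 CPM of *Cltc* and *Sh3gl2* correlated with r = 0.944, the highest of the 45 pairs, and that of *Clta* and *Dnm3* with r = −0.705, the lowest. *Cltb* and *Dnm1*, both high in GC, had r = 0.788. *Cltc* and *Clta*, chains of the same triskelion, had r = −0.456. The genes most like the mean profile of the 10 genes (standardised log2 CPM, Pearson's r over 6 samples) were *Rnf121* (r = 0.995), *Gdap2* (0.993) and *Ppm1l* (0.993), which were named by their likeness alone.

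With offsets for GC content and length in the edgeR fit, 2 of the 10 genes were called, both higher at 16 months, where 8.06% of all tested genes were called higher and 15.5% in either direction. *Cltc* had a log2 fold change of 0.0996 (adjusted *P* = 0.0246) and *Amph* of 0.086 (adjusted *P* = 0.0439). Over all alternatives the adjusted *P* ran from 0.00408 to 0.742 for *Cltc* and from 0.0195 to 0.575 for *Amph*, in edgeR or DESeq2. With these offsets *Sh3gl2* had a log2 fold change of 0.089 (adjusted *P* = 0.157, edgeR) and *Dnm1* of 0.042 (adjusted *P* = 0.319), and the median of the 10 genes was 0.027. The calls of *Cltc* and *Amph* thus depend on this correction and amount to less than 0.10 on the log2 scale.

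The wider machinery was described with a list of 60 genes in 8 roles, the 10 genes included. All 60 were tested and 0 were called by edgeR at an adjusted *P* under 0.05, with 5 at an unadjusted *P* under 0.05, against 1.67% and 17.4% of all genes. DESeq2 called 1 of the 60, where it called 3.03% of its genes. Of the 50 others, 35 had a log2 fold change above 0, and the median was 0.034 with a range from −0.23 to 0.22. Among tested genes at or above the mean level of *Ap2m1*, 62.8% were above 0 with a median of 0.0325. Some of the 50, such as *Ston1*, lie under that level. The ages did not overlap in 13 of the 50, 11 higher and 2 lower at 16 months, where 23.7% of all tested genes did not overlap.

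**Figure D4:**
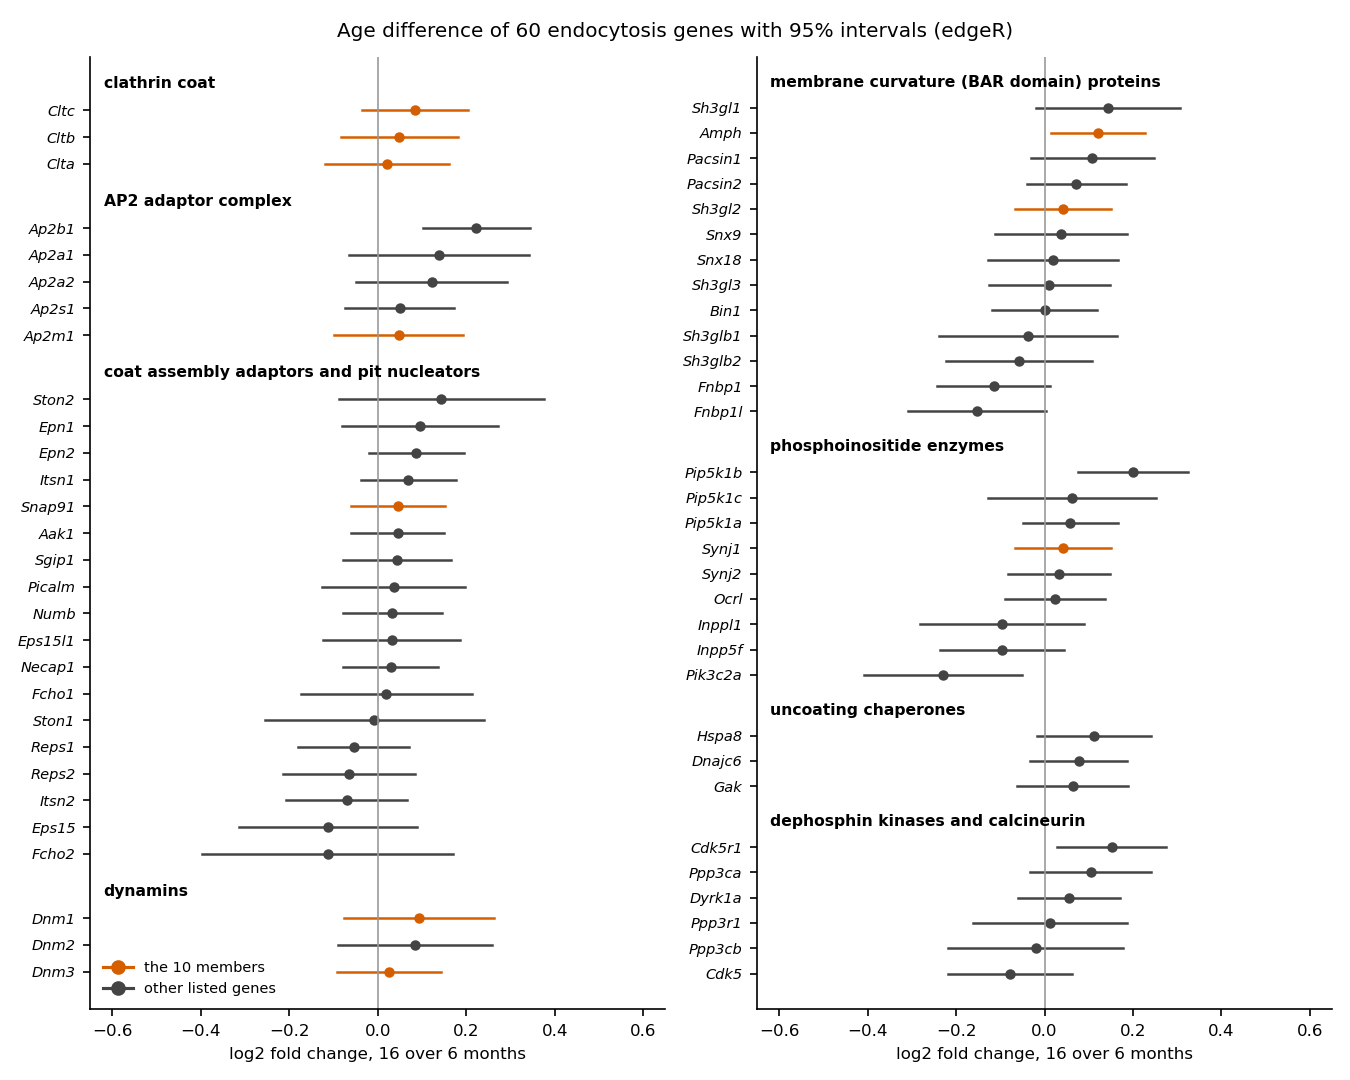
Log2 fold change (horizontal axis, 16 over 6 months) with its 95% interval from edgeR for the 60 endocytosis genes, grouped by role and ordered by value, with the 10 genes followed here in orange. All 10 orange points lie between 0.021 and 0.12, and *Ap2b1* has the highest value of the list, 0.22.

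By role, the 5 subunits of AP2 all had values above 0, with a median log2 fold change of 0.12. *Ap2b1*, the beta subunit, which holds the clathrin-binding hinge, was named after its values were seen. It was at 368, 338 and 348 CPM at 6 months and at 425, 399.5 and 406 CPM at 16 months, and the ages lay apart. Its log2 fold change was 0.22 ± 0.054 (standard error; adjusted *P* = 0.0762, edgeR), and DESeq2's Wald test called it (adjusted *P* = 0.0162). It was also called by edgeR without replicate 1 (adjusted *P* = 0.0279) or replicate 2 (0.0134) of 16 months. Those fits called 5.73% and 12.7% of all tested genes. Over all alternatives the adjusted *P* of *Ap2b1* ran from 4.5e-05 to 0.349. *Ap2s1*, the sigma subunit and the most abundant per length of the other AP2 genes, had a log2 fold change of 0.050 (adjusted *P* = 0.690, edgeR).

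In the other roles the values scattered around small differences. The coat adaptors had 12 of 18 values above 0 with a median of 0.032, and *Epn1* (epsin 1, which bends membrane and binds ubiquitinated cargo) stood at 0.096 (adjusted *P* = 0.579, edgeR). Its value rested on the aged libraries, with 0.0084 without replicate 1 and 0.18 without replicate 2 of 16 months. In the latter fit, which called 12.7% of all tested genes, *Epn1* was called (adjusted *P* = 0.0451, edgeR). The BAR domain proteins had 9 of 13 above 0 with a median of 0.019, and *Pacsin1* (syndapin 1, which links dynamin to actin) stood at 0.11 (adjusted *P* = 0.411), with 0.064 without replicate 1 and 0.17 without replicate 2 of 16 months, where it was called (adjusted *P* = 0.0336). *Dnm2* stood at 0.084 (adjusted *P* = 0.627). Of the phosphoinositide enzymes 6 of 9 were above 0 with a median of 0.033, and *Pip5k1c*, the synaptic lipid kinase that opposes synaptojanin, stood at 0.062 (adjusted *P* = 0.756). The 3 uncoating chaperones had a median of 0.077, with *Hspa8*, the ATPase that takes the coat apart, at 0.11 (adjusted *P* = 0.349). The kinases and calcineurin subunits that set the phosphorylation of endocytic proteins had 4 of 6 above 0 and a median of 0.034, with *Ppp3r1*, the regulatory subunit of calcineurin, at 0.012 (adjusted *P* = 0.954, edgeR throughout).

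*Dnmt1* itself was at 62.6, 60.4 and 61.2 CPM at 6 months and at 66.4, 60.7 and 66.6 CPM at 16 months. The ages overlapped, and the log2 fold change of 0.072 ± 0.056 (standard error) did not pass the test (adjusted *P* = 0.553, edgeR). *Pvalb*, the parvalbumin gene of fast-spiking interneurons, was at 43.5, 41.5 and 42.8 CPM at 6 months and at 17.5, 18.7 and 18.97 CPM at 16 months, and fell by 1.21 on the log2 scale (adjusted *P* = 1.49e-05, edgeR). It was the only called gene of 7 interneuron markers, of which 5 had values above 0, with a median log2 fold change of 0.071. Of 8 synaptic vesicle and SNARE genes 0 were called, 7 had values above 0, and their median log2 fold change was 0.097. The 10 endocytosis genes thus did not share the size of the *Pvalb* difference, and no 95% interval among them reached it.

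**Figure D5:**
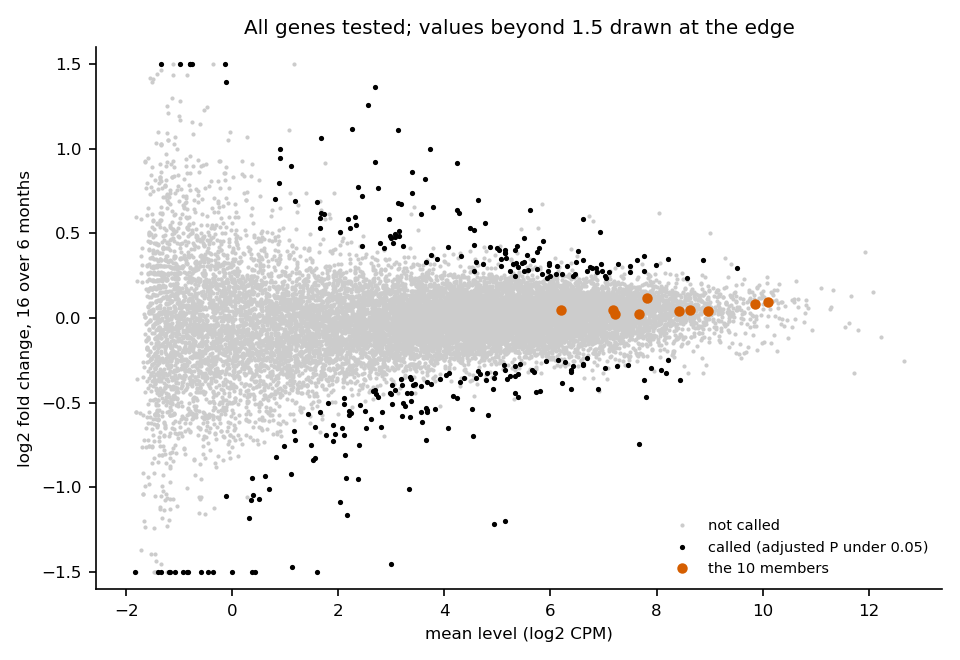
Log2 fold change (vertical axis, 16 over 6 months, drawn at the edge beyond 1.5) against the mean level (horizontal axis, log2 CPM) of the 17120 tested genes, with called genes in black, the others in grey and the 10 endocytosis genes in orange. The 10 genes sit among the abundant genes, just above 0 and inside the band of genes that were not called.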

How the data were processed

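Per the study's methods, the authors trimmed the paired reads with fastq-mcf, aligned them to mm10 with STAR and counted them per Ensembl gene with HTSeq; the processing notes name CASAVA 1.8.2, STAR 2.3.0e and featureCounts 1.5.0-p1 instead. The deposited values are raw counts, whose final lines are HTSeq's summary of unassigned reads. The Ensembl release and strand setting are not given in the sources used here. Between 70.8% and 76.5% of uniquely aligned reads lay on genes.

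Of 38355 identifiers, 36602 were matched to GENCODE M21 (GRCm38). Counts were tested with edgeR 4.0.16 in R 4.3.3 (TMM, filterByExpr, quasi-likelihood test on age, Benjamini-Hochberg adjustment over 17120 genes at 0.05). Per-length levels use the union of exons. Floors and intervals cover counting or sample spread only; 3 counts equal 0.0645 to 0.101 CPM, far under each of the 10 genes. Offsets were medians over 20 bins of GC content and of length per sample. DESeq2 1.42.0 and the other alternatives appear in the closing section. Scripts were tested on simulated counts. No samples of one age held identical values.

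The members and gene lists were chosen with earlier results of these data known. Named genes are the 10 members, called genes of the wider list, the most abundant other gene per length of each role, *Dnmt1*, *Pvalb*, the 3 genes most like the members' mean profile, and *Ap2b1*. Near-identical copies were searched with blastn 2.17.0, and figures drawn with matplotlib 3.10.9. Protein sequences were not used here.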

Additional observations from a re-analysis of the deposited data

How the results depend on the processing

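The number of called endocytosis genes stayed at 0 of 10 under RLE and upper quartile normalization, no filter or at least 10 counts in every sample, DESeq2, the replicate block and each of the 6 fits without 1 sample, and became 2 with GC and length offsets and 3 with the offsets and the replicate block, which added *Sh3gl2* (adjusted *P* = 0.0345, edgeR), in a fit that called 3601 of all 17120 genes. All 10 log2 fold changes stayed above 0 except in fits without 1 sample, where they ran from −0.023 to 0.064 for *Clta*, −0.0080 to 0.079 for *Cltb*, −0.0087 to 0.088 for *Ap2m1* and −0.0088 to 0.052 for *Dnm3*. In such fits *Dnm2* ran from −0.0040 to 0.15, *Pip5k1c* from −0.043 to 0.15 and *Ppp3r1* from −0.079 to 0.095, and *Ppp3r1* was at −0.0025 with upper quartile normalization. The cause was not tested.

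The wider list gave 1 call without a filter, with DESeq2 and with the block, 11 with offsets, 20 with offsets and block, and 0 to 8 without 1 sample (3 without replicate 1 and 8 without replicate 2 of 16 months). Over all genes the 286 calls became 648 without a filter, 471 with DESeq2, 783 with the block, 2646 with offsets, 3601 with offsets and block, and 48 to 2211 without 1 sample (995 without replicate 1 and 2211 without replicate 2 of 16 months; 48 to 58 without any of the other 4). Shares that did not overlap numbered 1, and up to 5 without replicate 2 of 16 months. Ranks changed for 7 genes with the coding transcript length.

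Samples with the same number come from different brains. They are therefore not paired by animal. Their departures from the average of the age correlated weakly, with r = 0.180, 0.0958 and 0.0351 for numbers 1, 2 and 3. Of the 6 samples, 5 correlated best with their own number, and the replicate block raised the calls from 286 to 783. Departures within an age sum to 0 for each gene, so these matches are not independent of each other. Whether samples of the same number shared a processing step was not tested. Without offsets, differences of a few percent were not detectable.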
